A study of Rattus norvegicus with 252 samples.

Results

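ENSRNOG00000010867 is 1 of 32883 rat genes listed in the deposited count table, and its row was followed through the 240 study libraries of the series, which cover 4 brain tissues, 3 ages and 2 genotypes. The gene was selected on measured values: its counts summed over the tissues of each animal had differed between the genotypes in earlier work on these data, and the difference had looked largest in the cerebellum. The differences between Q130 and WT below are therefore a description with no p-value; tests were made only of whether that difference varied with age or sex, and these use the same libraries that chose the gene. The animals were 60 Long Evans rats, heterozygous for the Q130 knock-in allele (Q130) or wild type (WT), of 2, 6 or 12 months of age, and RNA of striatum, cortex, hippocampus and cerebellum was sequenced from each. The libraries thus form 24 groups of 10, each with 5 females and 5 males. Batch 1 held the study libraries of 2 and 6 months and batch 2 those of 12 months. A comparison of genotypes at 1 age thus lies within 1 batch, while among study libraries 12 months cannot be told apart from batch 2. The animal identifiers begin with a prefix whose meaning the labels do not give. At 2 months 5 prefixes held both genotypes. The genotypes had separate prefixes at 12 months and largely separate ones at 6 months, so genotype and prefix cannot be told apart there. Another 12 libraries repeated the striatum of 12 males of 2 or 6 months in batch 2. Within a group each library comes from a different animal.

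The Q130 rat models Huntington disease, an inherited disorder caused by a lengthened run of glutamine codons in the huntingtin gene. Medium spiny neurons of the striatum, which send the output of that region in the control of movement, are the cells the disease is best known for harming, and the cortex that projects to them is also affected. The hippocampus serves memory, and the cerebellum, whose output runs through Purkinje cells, tunes movement. In a knock-in the lengthened repeat sits in the animal's own gene, so it is read wherever that gene is normally active, and a heterozygous animal keeps 1 normal copy. The tables available here do not pair the identifier ENSRNOG00000010867 with a gene name, a position or a function (0 of 32883 identifiers matched), so none is given. For the same reason the tissue labels could not be checked against marker genes.

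The row rests on few reads, but on reads in every library. Estimated counts of the gene ran from 16 to 252 with a median of 111.5, in libraries with totals of 25.3 to 50.8 M counts (M, mega), and no study library was at 0. Counting error alone gives a coefficient of variation of 25% at the lowest count, 9.47% at the median and 6.30% at the highest. A single transcript, ENSRNOT00000014692, had a row identical to that of the gene in all 252 libraries, to within 0.01 counts, and all these counts were whole numbers. Over all genes 8.19% of the values were not whole, as happens where reads are divided between features. The deposited FPKM and count values of this transcript imply an effective length of 4938 bases. Within groups, the variance of the counts was 0.822 to 13.8 times that of counting error, so animals or libraries added spread beyond counting in most groups.

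Some libraries stood apart or went against their labels. In 9 libraries of 7 animals the median correlation with the other libraries of the tissue was 0.859 to 0.962, against at least 0.973 in all others, and 8 of these 9 were Q130. At 6 months, Q130 male 1 has a library labelled striatum that correlated best with hippocampal libraries (0.986), and Q130 male 5 has a library labelled hippocampus that correlated best with striatal libraries (0.983). The identifiers give both to 1 animal. At 12 months the library labelled striatum of Q130 female 2 also correlated better with hippocampal libraries (0.976) than with striatal ones (0.961). Values with and without the 9 libraries are given where they matter. Animals were also compared through 161 genes whose deviations were shared between tissues (median correlation above 0.6 over 48 animals). By these genes all 60 libraries of the cortex, of the hippocampus and of the cerebellum matched their own animal best, as did 46 of 48 striatal libraries of these animals, the other 2 being the libraries of Q130 male 1 at 6 months and Q130 female 2 at 12 months named above, and all 12 first libraries of the repeated animals. The labels of the 48 animals served to choose the 161 genes, so the matches of these animals are in part fixed by that choice. The 12 repeated animals had no part in it. Deviations were taken from the mean of the labelled tissue, so a library that resembles another tissue can fail this match whatever its animal. Of the 12 repeat libraries only 2 matched the animal of their label best, and the 12 best matches were 12 different animals, all among the 12 repeated ones. The animals and genotypes of single repeat libraries were therefore not used.

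The label of a low-abundance gene held for well-measured genes. On the TPM scale, which corrects for length, 14.8% of the genes that averaged at least 10 counts a library lay below it in the striatum, 12.1% in the hippocampus, 8.77% in the cortex and 5.64% in the cerebellum. The median such gene had 13.9 TPM in the striatum and 19.3 TPM in the cerebellum, where this gene averaged 1.84 and 0.671 TPM. Among all genes with at least 1 count, 36.3 to 42.9% lay below it, and its mean was again under that of the median gene, with 1.84 against 4.10 TPM in the striatum and 0.671 against 4.73 TPM in the cerebellum. The rank was higher in CPM, which does not correct for length, at 14.4 to 26.6% among well-measured genes. Among genes with at least 1 count it was above the median gene in the striatum, with 5.42 against 4.91 CPM, and under it in the other tissues.

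In WT brains the gene was highest in the striatum, followed by the hippocampus, the cortex and the cerebellum. The cerebellum of WT rats held 0.353 to 1.40 TPM with a median of 0.786, and the striatum 1.55 to 2.51 TPM with a median of 2.06, so these tissues did not overlap. The hippocampus held 1.20 to 2.35 TPM with a median of 1.60, and the cortex 0.713 to 1.32 TPM with a median of 1.10; each overlapped its neighbours in the order. Means were 2.03 ± 0.218 TPM in the striatum, 1.61 ± 0.231 in the hippocampus, 1.06 ± 0.170 in the cortex and 0.820 ± 0.209 in the cerebellum (SD, n = 30 WT animals). The order also held within animals. The striatum was above the hippocampus in 28 of 30 WT animals, the hippocampus above the cortex in 29, and the cortex above the cerebellum in 27.

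All 6 pairs of tissues differed in edgeR's quasi-likelihood test over the 120 WT libraries with the animal as a block and Benjamini-Hochberg adjustment. Levels by tissue were not what chose the gene. On the log2 scale of the counts the cerebellum had a fold change of -1.69 ± 0.06 (SE) over the striatum (edgeR adjusted p = 5.80e-47), of -1.12 ± 0.06 over the hippocampus (edgeR adjusted p = 8.65e-33) and of -0.62 ± 0.06 over the cortex (edgeR adjusted p = 1.43e-16). Such calls were common: 88%, 86.2% and 85.7% of 17173 genes differed in these 3 pairs. The striatum was higher than the hippocampus by 0.57 ± 0.06 (edgeR adjusted p = 3.38e-16) and higher than the cortex by 1.07 ± 0.06 (edgeR adjusted p = 1.55e-32), where 81.1% and 83.6% of genes differed. The hippocampus was higher than the cortex by 0.50 ± 0.06 (edgeR adjusted p = 4.31e-13), with 75.4% of genes called. In size, 15.1% of all genes had a larger difference in either direction between the cerebellum and the striatum, and 40.3% between the cerebellum and the cortex. In bulk tissue, fewer cells of a type that carries a transcript and less transcript per cell cannot be told apart, here and in every comparison below.

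**Figure D1:**
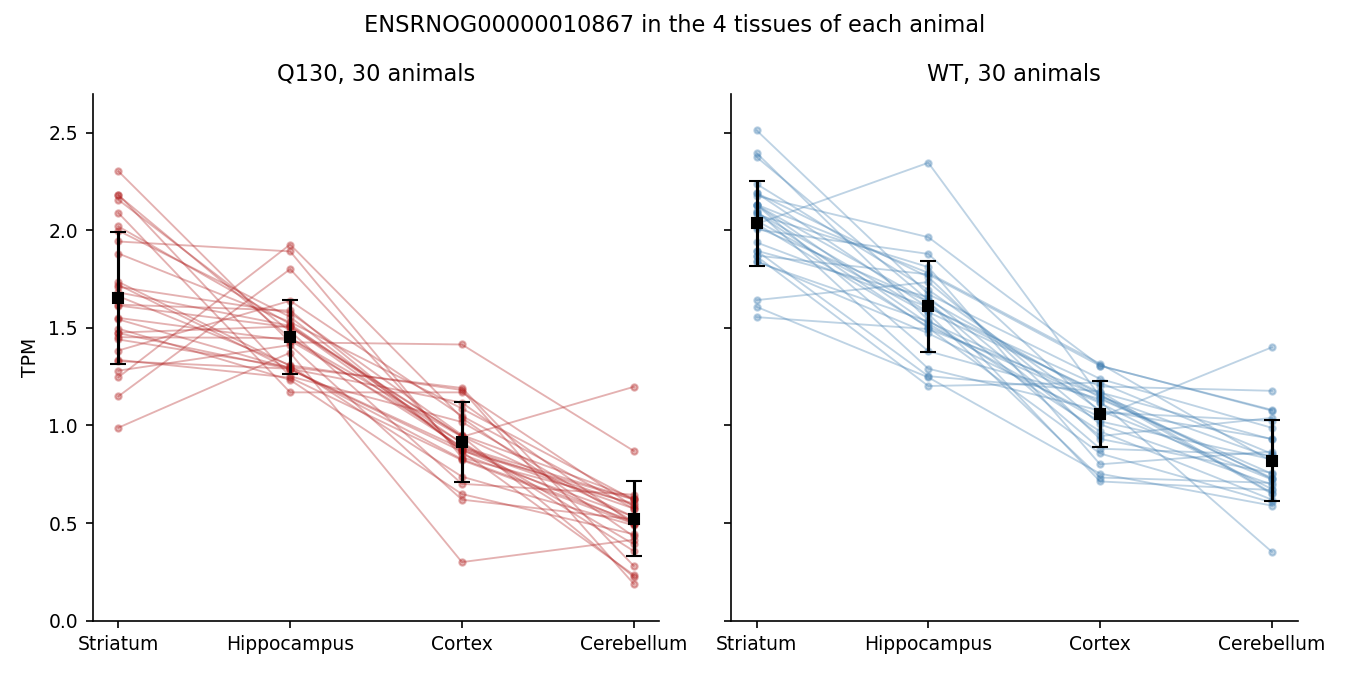
Level of ENSRNOG00000010867 in TPM (vertical axis) in the striatum, hippocampus, cortex and cerebellum, with Q130 animals in the left panel and WT animals in the right panel. Each thin line joins the tissues of 1 animal, and squares with bars are means and SD over 30 animals; the level declines from striatum to cerebellum in both panels, to 0.522 TPM in Q130 cerebellum and 0.820 TPM in WT cerebellum.

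Q130 animals had the same order of tissues at lower levels. Means were 1.65 ± 0.337 TPM in the striatum, 1.45 ± 0.189 in the hippocampus, 0.916 ± 0.206 in the cortex and 0.522 ± 0.192 in the cerebellum (SD, n = 30 Q130 animals). The striatum was above the hippocampus in 24 of 30 Q130 animals, the hippocampus above the cortex in 30, and the cortex above the cerebellum in 28. The striatal mean was 3.17 times the cerebellar mean in Q130 rats and 2.48 times in WT rats.

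The cerebellum, where the gene is scarcest, held the widest relative gap between genotypes at 6 and 12 months. In CPM itself the gap between the means was wider in the striatum at both ages. At 6 months Q130 cerebella had 0.437, 1.24 and 1.46 CPM as the lowest, median and highest values, against 1.47, 2.02 and 2.60 CPM in WT cerebella. Every Q130 library lay below every WT library in CPM, although the highest Q130 and the lowest WT value all but touched and the ranges overlapped on the TPM scale (0.189 to 0.623 TPM in Q130, 0.606 to 1.18 TPM in WT). Such separation in CPM, with Q130 below, was seen in 5 of 15396 genes (0.0325%), a share from which nothing is read since this contrast chose the gene. Means were 1.20 ± 0.299 CPM in Q130 and 2.00 ± 0.389 CPM in WT (SD, n = 10 each), 40.1% lower in Q130. The fitted log2 fold change was -0.74 ± 0.16 (SE), with a median over all genes of 0.01, and 0.193% of 15513 genes had a lower one. Nothing is read from that share either.

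At 12 months Q130 cerebella had 0.527, 1.06 and 1.52 CPM as the lowest, median and highest values, against 1.30, 1.60 and 3.10 CPM in WT cerebella. Of the 10 Q130 libraries 9 lay below the lowest WT value, and the remaining one, female 2, lay inside the WT range. Means were 1.02 ± 0.288 CPM in Q130 and 1.85 ± 0.567 CPM in WT (SD, n = 10 each), 44.7% lower in Q130. The log2 fold change was -0.83 ± 0.17 (SE), and 0.0910% of 15382 genes had a lower one. Nothing is read from that share, since this contrast chose the gene. The WT spread at this age came mainly from females, which had 2.19 ± 0.649 CPM, while WT males had 1.51 ± 0.123 CPM (SD, n = 5 each). Q130 females had 1.03 ± 0.414 CPM and Q130 males 1.02 ± 0.120 CPM (SD, n = 5 each).

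At 2 months the cerebellar groups overlapped widely. Q130 cerebella had 0.529, 1.37 and 3.27 CPM as the lowest, median and highest values, against 0.814, 1.78 and 2.23 CPM in WT cerebella. Means were 1.47 ± 0.726 CPM in Q130 and 1.72 ± 0.386 CPM in WT (SD, n = 10 each), with a log2 fold change of -0.24 ± 0.24 (SE). The highest Q130 value belongs to male 1, 1 of the 2 Q130 libraries of this group that stood apart. Without both, Q130 averaged 1.29 ± 0.394 CPM (SD, n = 8) and the log2 fold change was -0.44 ± 0.19 (SE). Leaving out Q130 female 1, the lowest library, instead brought the difference of the mean log2 CPM to -0.17, against -0.31 with all libraries.

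**Figure D2:**
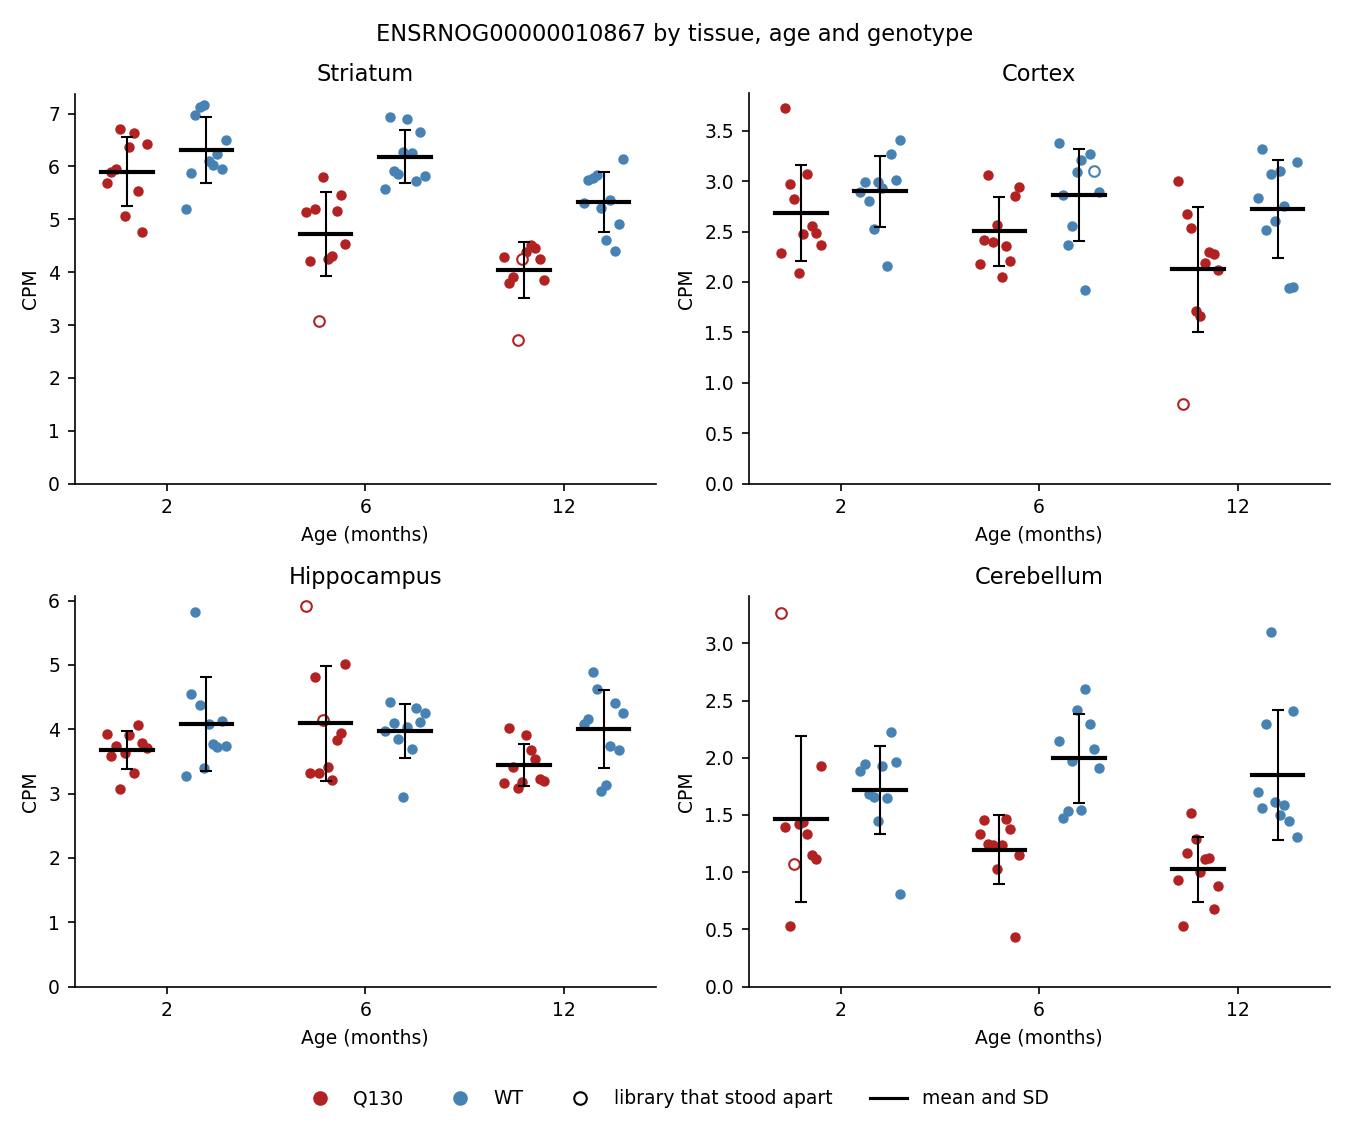
CPM of ENSRNOG00000010867 (vertical axis, from 0, with a scale of its own in each panel) at 2, 6 and 12 months in the 4 tissues, Q130 in red left of WT in blue at each age. Points are libraries, open points are libraries that stood apart, and bars are means and SD over 10 animals; at 6 months all Q130 cerebella lie below 1.47 CPM, the lowest WT value.

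In the striatum, where the gene is most abundant, the genotypes were close at 2 months and further apart at 6 and 12 months. At 2 months Q130 striata had 4.76, 5.93 and 6.71 CPM as the lowest, median and highest values, against 5.20, 6.17 and 7.16 CPM in WT striata, and the groups overlapped. Means were 5.90 ± 0.655 CPM in Q130 and 6.32 ± 0.627 CPM in WT (SD, n = 10 each), with a log2 fold change of -0.10 ± 0.07 (SE). At 6 months Q130 striata had 3.08, 4.83 and 5.80 CPM as the lowest, median and highest values, against 5.57, 6.09 and 6.93 CPM in WT striata. All but 1 of the 10 Q130 libraries lay below the lowest WT library. Means were 4.71 ± 0.795 CPM in Q130 and 6.19 ± 0.494 CPM in WT (SD, n = 10 each), with a log2 fold change of -0.40 ± 0.09 (SE). The lowest library, Q130 male 1, is the one that correlated best with hippocampus, and without it Q130 averaged 4.90 ± 0.583 CPM (SD, n = 9) and the log2 fold change was -0.34 ± 0.07 (SE).

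At 12 months Q130 striata had 2.72, 4.24 and 4.51 CPM as the lowest, median and highest values, against 4.41, 5.34 and 6.14 CPM in WT striata. Of the 10 Q130 libraries 8 lay below the lowest WT library. Means were 4.04 ± 0.527 CPM in Q130 and 5.33 ± 0.563 CPM in WT (SD, n = 10 each), 24.2% lower in Q130, with a log2 fold change of -0.39 ± 0.08 (SE). Without the 2 Q130 libraries that stood apart, the lowest (male 3, 2.72 CPM) and that of female 2, which correlated best with hippocampus (4.24 CPM), the Q130 mean was 4.18 ± 0.286 CPM (SD, n = 8) and the log2 fold change -0.34 ± 0.07 (SE).

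In the cortex the genotypes overlapped at each age, and the Q130 mean was 7.32, 12.6 and 22.0% lower at 2, 6 and 12 months. At 2 months means were 2.69 ± 0.476 CPM in Q130 and 2.90 ± 0.354 CPM in WT (SD, n = 10 each), with a log2 fold change of -0.11 ± 0.10 (SE). At 6 months they were 2.50 ± 0.343 CPM in Q130 and 2.86 ± 0.457 CPM in WT, with a log2 fold change of -0.20 ± 0.10. At 12 months Q130 cortices had 0.790, 2.24 and 3.0 CPM as the lowest, median and highest values, against 1.94, 2.79 and 3.32 CPM in WT cortices, and 3 of 10 Q130 libraries lay below the lowest WT library. The log2 fold change was -0.38 ± 0.16 (SE). The lowest library, Q130 male 4, stood apart and came from the same animal as the lowest striatal library of that age. Without it the log2 fold change was -0.28 ± 0.12 (SE), and the difference of the mean log2 CPM was -0.26, against -0.40 with it.

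The hippocampus held the 1 comparison of the 12 in which the Q130 mean was not lower. At 2 months means were 3.68 ± 0.296 CPM in Q130 and 4.09 ± 0.730 CPM in WT (SD, n = 10 each), with a log2 fold change of -0.15 ± 0.09 (SE). The WT value of female 5, 5.83 CPM, lay far above the others, and without it the difference of the mean log2 CPM was -0.08, against -0.14 with it. At 6 months Q130 hippocampi had 3.21, 3.89 and 5.92 CPM as the lowest, median and highest values, against 2.95, 4.07 and 4.43 CPM in WT hippocampi. Means were 4.09 ± 0.895 CPM in Q130 and 3.97 ± 0.419 CPM in WT (SD, n = 10 each), with a log2 fold change of 0.04 ± 0.11 (SE). The highest library, Q130 male 5, is the one that correlated best with striatum. Without it and male 3, which also stood apart, Q130 averaged 3.86 ± 0.701 CPM (SD, n = 8) and the log2 fold change was -0.03 ± 0.10 (SE), and on the TPM scale all 10 Q130 libraries averaged 1.53 ± 0.255, against 1.58 ± 0.156 TPM in WT. At 12 months means were 3.44 ± 0.334 CPM in Q130 and 4.0 ± 0.607 CPM in WT (SD, n = 10 each), 13.9% lower in Q130, with a log2 fold change of -0.21 ± 0.08 (SE).

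**Figure D3:**
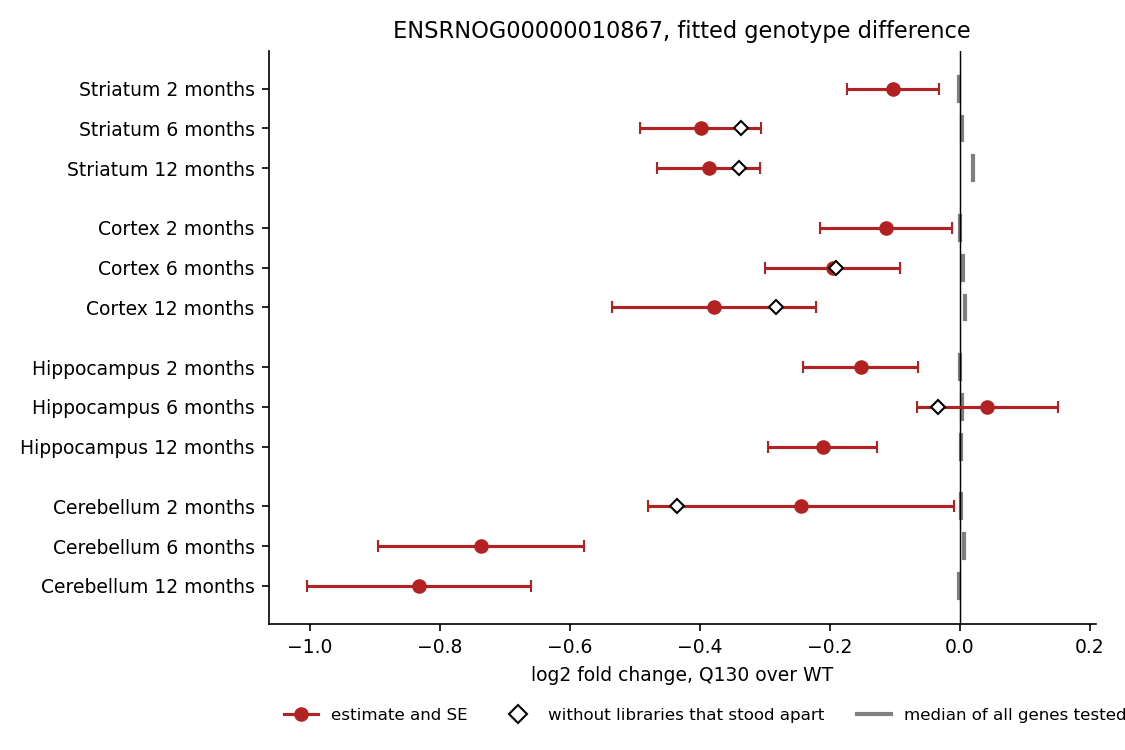
Fitted log2 fold change of ENSRNOG00000010867, Q130 over WT (horizontal axis), for 12 comparisons of tissue and age; red points with bars are estimates and SE, open diamonds leave out the libraries that stood apart, and grey ticks are medians over all genes tested. The estimates reach -0.74 and -0.83 in the cerebellum at 6 and 12 months, and the one estimate above 0, in the hippocampus at 6 months, has its diamond at -0.03.

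Over the 12 comparisons the Q130 mean was lower in 11, in females in 11 and in males in 10, by log2 CPM within sex. Summed over tissues, the fitted log2 fold change over 60 animals was -0.28 ± 0.04 (SE), with a median of 0.003 over 17768 genes. That is the contrast the gene was chosen on, and it called 3 genes (0.0169%), so nothing is read from its call. The counts of low libraries and tissues that follow restate the sum that chose the gene, and nothing is read from them about tissues of 1 animal moving together. Of 120 Q130 libraries 103 lay below the WT median of their tissue and age, against 60 of 120 WT libraries, a number the median itself fixes. Leaving out the libraries that stood apart made this 98 of 112 Q130 libraries. At 12 months 9 of 10 Q130 animals were below the WT median in all 4 tissues, and the other in 3. At 6 months 5 of 10 were below in 4 tissues and 5 in 3, and at 2 months 2 in 4 tissues, 6 in 3, 1 in 2 and 1 in 1. Of the 30 WT animals 2 were below in all 4 tissues and 4 in none.

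**Figure D4:**
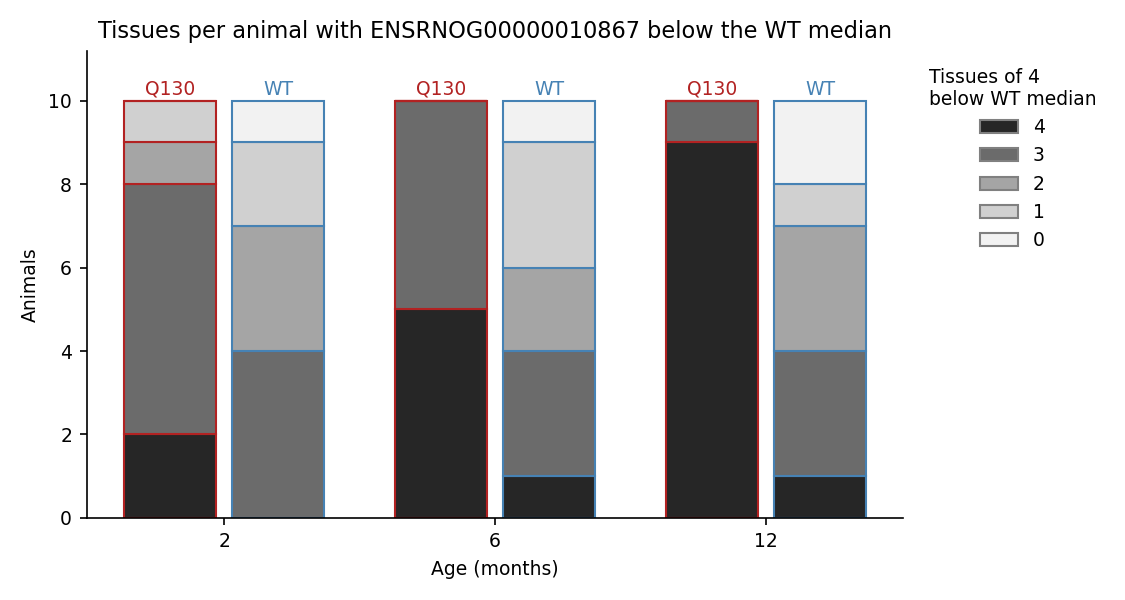
Number of animals (vertical axis) by the number of tissues, 0 to 4, in which ENSRNOG00000010867 lay below the WT median of that tissue and age, with Q130 left of WT at 2, 6 and 12 months. Darker shades stand for more tissues; all 4 tissues were below in 2, 5 and 9 of 10 Q130 animals at these ages, and in 0, 1 and 1 of 10 WT animals.

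The genotype difference was tested for a change with age within each tissue, in edgeR's quasi-likelihood test of the interaction over 60 libraries, jointly over the 3 ages. The sum that chose the gene runs over all ages, but the values at each age entered it. The log2 fold change at 12 months minus that at 2 months, given here with the p of the joint test, was -0.29 in the striatum (unadjusted p = 0.0168, adjusted p = 0.190 by edgeR), -0.25 in the cortex (edgeR adjusted p = 0.847), -0.06 in the hippocampus (edgeR adjusted p = 0.959) and -0.61 in the cerebellum (unadjusted p = 0.0663, edgeR adjusted p = 0.636). No adjusted p was under the threshold of 0.05, so a change of the gap with age was not shown for this gene. The genotypes shared identifier prefixes at 2 months and few or none at the later ages. A change of the gap with age could thus not be told apart from that change of prefixes. Prefix was not in this fit, and animals that share a prefix were treated as independent. The striatal test called 0.284% of 16181 genes. In the cortex, hippocampus and cerebellum edgeR called 0 genes (0%), with 1112, 722 and 1356 under 0.05 before adjustment. By limma-voom 0 were called in each, and by DESeq2 0, 1 and 8.

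Between 2 and 6 months, ages that share a batch, no change was detected in WT rats. WT striata averaged 6.19 ± 0.494 CPM at the age of 6 months, against 6.32 ± 0.627 CPM at 2 months, and WT cortices 2.86 ± 0.457 CPM at 6 months, against 2.90 ± 0.354 CPM at 2 months (SD, n = 10 each). WT hippocampi averaged 3.97 ± 0.419 CPM at 6 months, against 4.09 ± 0.730 CPM at 2 months, and WT cerebella 2.00 ± 0.389 CPM at 6 months, against 1.72 ± 0.386 CPM at 2 months. The log2 fold change, 6 over 2 months, was -0.02 ± 0.06 in the striatum, -0.01 ± 0.10 in the cortex, -0.04 ± 0.09 in the hippocampus and 0.22 ± 0.15 in the cerebellum (SE), with adjusted p by edgeR's quasi-likelihood test of 0.843, 0.967, 0.823 and 0.312. Exact permutation tests of age within sex, two-sided, gave p = 0.641, 0.804, 0.759 and 0.158 for these 4 tissues in the same order. The test called 16.9% of genes in the striatum, 3.54% in the cortex, 17.1% in the hippocampus and 19.1% in the cerebellum, so other genes did change with age here. In Q130 rats the corresponding means, not tested, were 4.71 CPM at 6 months against 5.90 CPM at 2 months in the striatum, 2.50 against 2.69 in the cortex, 4.09 against 3.68 in the hippocampus and 1.20 against 1.47 in the cerebellum. At 12 months, in batch 2, WT means were 5.33, 2.73, 4.0 and 1.85 CPM in the striatum, cortex, hippocampus and cerebellum. The striatal WT mean was lower there than at the younger ages. The study libraries alone do not tell age and batch apart in that difference.

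No difference between the sexes was detected. In the striatum females had 5.47 ± 0.804 CPM and males 5.36 ± 1.20 CPM, and in the cortex females had 2.72 ± 0.453 CPM and males 2.55 ± 0.570 CPM (SD, n = 30 each). In the hippocampus females had 3.92 ± 0.634 CPM and males 3.83 ± 0.597 CPM, and in the cerebellum females had 1.60 ± 0.572 CPM and males 1.48 ± 0.571 CPM. The log2 fold changes, female over male, were 0.04 ± 0.05, 0.10 ± 0.07, 0.03 ± 0.06 and 0.10 ± 0.11 (SE), with edgeR adjusted p of 0.693, 0.422, 0.907 and 0.721. This test called 0.599%, 0.552%, 0.479% and 1.84% of genes in these tissues. The genotype difference did not pass a test of difference between the sexes either. The log2 fold change in females minus that in males was 0.08 ± 0.09 in the striatum, 0.21 ± 0.15 in the cortex, -0.15 ± 0.11 in the hippocampus and -0.29 ± 0.23 in the cerebellum (SE, edgeR adjusted p of 0.991, 0.9995, 0.9999 and 0.992). In that test edgeR called 0 genes (0%) in all 4 tissues, with 496, 433, 408 and 590 under 0.05 before adjustment. By limma-voom 0 were called, and by DESeq2 1 in the striatum and 0 in the others. The test of genotype by sex took the 3 ages together, so patterns that reverse between ages could cancel in it. In the cerebellum the genotype difference of the mean log2 CPM was -0.70 in females and 0.09 in males at 2 months. It was -0.48 and -1.01 at 6 months, and -1.10 and -0.55 at 12 months.

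No correlation between tissues passed adjustment when animals were compared within groups. Deviations of the log2 CPM from the mean of the tissue, age, genotype and sex were correlated over 30 animals of a genotype for 6 pairs of tissues, 12 relations in all. Pearson's r ranged from -0.42 to 0.49 in Q130 and from -0.10 to 0.24 in WT animals. The strongest, striatum with cortex in Q130 animals (r = 0.49, Spearman's rho = 0.29), had a permutation p of 0.0400, a Spearman permutation p of 0.154 and an adjusted p of 0.332, and r was 0.16 without the 2 animals farthest from the median. Without the libraries that stood apart, which takes out 3 animals with the one that had the lowest cortical and striatal libraries at 12 months among them, r was 0.04 (n = 27). Striatum with hippocampus in Q130 animals had r = -0.42 (rho = -0.47, permutation p = 0.0597 and 0.0210, adjusted p = 0.332 and 0.252), and this pair includes the animal whose libraries correlated best with each other's tissue. For both coefficients, none of the 12 relations had an adjusted p under 0.05.

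The 12 repeat striatal libraries set batch 2 beside batch 1 for the same animals. They averaged 0.02 log2 CPM below the first libraries (mean difference of -0.02, n = 12 libraries each). Since most repeat libraries matched another animal of the 12 best, the mean difference holds for the set of animals, while pairs by label give neither a test nor the repeat error of 1 animal. The repeats place male striata of 2 or 6 months in batch 2, where they ran from 4.37 to 7.75 CPM. Male striata of 12 months, also in batch 2, averaged 3.85 CPM in Q130 and 5.00 CPM in WT (n = 5 each). Whether the lower striatal means at 12 months go with age or with batch was not tested with the repeats. The other tissues have no repeats.

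Other genes followed the gene across groups without sharing its genotype difference to the same extent. Over the 24 group means of log2 CPM, the highest correlations were with ENSRNOG00000013807 (r = 0.97), ENSRNOG00000019688 (r = 0.96), ENSRNOG00000051349 and ENSRNOG00000051132 (r = 0.96 each, with identical values) and ENSRNOG00000031494 (r = 0.96). The groups share tissues, and 423 of 15784 genes exceeded 0.9; the parts of tissue, age and genotype in this likeness were not separated. The mean genotype log2 difference of these genes over the 12 comparisons was between -0.07 and -0.005. Over the 240 libraries, deviations within groups correlated most with ENSRNOG00000018153 (r = 0.54), ENSRNOG00000038002 (r = 0.51), ENSRNOG00000001347 (r = 0.51), ENSRNOG00000021729 (r = 0.49) and ENSRNOG00000006355 (r = 0.48). Without the libraries that stood apart these were 0.41, 0.40, 0.41, 0.36 and 0.33, lower for each gene. Each of these 5 is more abundant, at 16.8 to 204.6 CPM in the striatum, and their mean genotype log2 differences lay between -0.02 and 0.02. The tables used here give no names for these identifiers.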

How the data were processed

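Per the labels' protocols, dissected tissue was frozen on dry ice, a Qiagen kit served for RNA, and enriched fractions of it went into Illumina libraries. Not given in the sources used here: aligner, counting program, build. In their files the authors deposited estimated counts (expected counts, not normalized) per gene and transcript. Their table named FPKM for genes has columns that all have the total of TPM values, so its deposited values were used as TPM. The deposited transcript FPKM served only for the effective length. The gene and every list were chosen with earlier results of these data known. Groups came from the labels. Columns spelled with dots were taken as the repeat libraries, an inference from names; 0 columns stayed unused.

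Counts were rounded. CPM used TMM library sizes; log2 CPM used a prior count of 2. edgeR 4.0.16 under R 4.3.3 (filterByExpr, TMM, robust dispersions, quasi-likelihood F test, Benjamini-Hochberg over all genes, threshold 0.05) fitted for genotype the 20 libraries of each tissue and age, with sex as covariate, 120 WT libraries with the animal as block for tissue, 20 WT libraries for age, and 60 libraries of a tissue for sex and interactions. Correlations used 100000 permutations within age and sex. Genes beside it were named by a rule: the 5 most correlated over group means and the 5 over deviations within groups; its other parts need gene symbols and named none. Alternatives were RLE factors, DESeq2 1.42.0, limma-voom (limma 3.58.1), no filter, log2(TPM + 0.1) in limma, other blocks and omitted libraries. The edgeR fit was tested on simulated data for age, sex and tissue, and the other methods and designs were not. The identity match of libraries was made after seeing the data. Counting errors cover counting only.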

Additional observations from a re-analysis of the deposited data

Results flagged for a closer look

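In 5 of the 24 groups of 10 libraries the highest or lowest CPM of ENSRNOG00000010867 lay farther from its neighbour, relative to the range of the group, than Dixon's criterion of 0.466 allows; chance alone flags about 1 in 20 groups. In the cerebellum of Q130 rats at 2 months, male 1 had 3.27 CPM against 1.93 in the next library and a group median of 1.37, and this library also stood apart from its tissue. In the cerebellum of Q130 rats at 6 months, male 3 had 0.437 CPM, from 16 counts, against 1.03 in the next library. In the striatum of Q130 rats at 12 months, male 3 had 2.72 CPM against 3.80 in the next library, and it stood apart from its tissue as well. In the WT hippocampus, female 5 at 2 months had 5.83 CPM against 4.54 in the next library, and female 5 at 6 months, another animal, had 2.95 CPM against 3.69. What part the quality of these libraries has in their values was not tested.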

How the results depend on the processing

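The 94 refits of the genotype difference by other tools, scalings, filters, blocks and omitted libraries moved no value by as much as the SD between libraries, and kept its sign in 11 of 12 comparisons. That SD is a wide limit, since at 2 months it was larger than the genotype difference of log2 CPM in every tissue. The SD was also larger than the difference in the cortex at 6 and 12 months and in the hippocampus at 6 months. In the cerebellum at 2 months it was 0.52, and the log2 fold change ran from -0.44 to -0.23 over 9 alternatives. In the hippocampus at 6 months the log2 fold change ran from -0.05 to 0.04 over 8 alternatives. Leaving out single libraries gave -0.89 to -0.60 in the cerebellum at 6 and 12 months, -0.44 to -0.34 in the striatum at these ages and -0.04 to 0.06 in the hippocampus at 6 months. With the replicate block the log2 fold change was -0.75 and -0.85 in the cerebellum at 6 and 12 months. Same-numbered animals were not shown to pair, since in 0 of 16 comparisons did all pairs correlate above 0.1. Among the 5 numbers of their sex, 47 of 160 libraries correlated best with their own. Without pairing, each of the 5 numbers would be best equally often on average. The 47 matches lie above such an equal share, whose spread was not computed, so a partial pairing was not tested. All 60 alternatives for tissue levels kept direction and call, and all 24 each for both interactions kept an adjusted p above 0.05.

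Age in WT changed sign when single libraries were left out, at -0.0578 to 0.0041 in the striatum, -0.0470 to 0.0405 in the cortex and -0.0710 to 0.0331 in the hippocampus, with no call. Sex was 0.00027, -0.00285, 0.11 and 0.24 in WT libraries alone in the striatum, cortex, hippocampus and cerebellum, against 0.04, 0.10, 0.03 and 0.10 in all libraries. Without libraries that stood apart it was 0.0034, 0.064 and 0.16 in the striatum, hippocampus and cerebellum, genotype by sex was 0.0092, 0.13, -0.09 and -0.17 in the 4 tissues, and genotype by age was -0.16 in the cortex and -0.41 in the cerebellum. On TPM sex in the striatum was 0.07, genotype by sex in the striatum 0.05 and genotype by age in the hippocampus -0.02. The repeat difference, in pairs by label that mostly did not match, ran from -0.0776 to 0.0234 when 1 pair was left out. Correlations between tissues changed sign in 5 of 36 settings: -0.0781 for cortex with cerebellum in Q130 without libraries that stood apart; in WT, 0.0288, -0.00344 and -0.0129 for striatum with cortex, hippocampus and cerebellum without the 2 farthest animals, and 0.0311 for cortex with hippocampus on the TPM scale. The share of genes below the gene was 42.9, 38.9, 41.8 and 36.3% in the striatum, cortex, hippocampus and cerebellum among all genes with at least 1 count. Calls over all genes moved by more than 1.5 times without libraries that stood apart, to 199 from 46 for genotype by age in the striatum, 727 from 97 and 233 from 89 for sex in the striatum and cortex, 117 from 77 for sex in the hippocampus, 17 from 0 for genotype by age in the cerebellum, and 1680 from 557 for age in the cortex. By DESeq2 sex called 175, 148 and 119 in the striatum, cortex and hippocampus and age in the cortex 968, which was 300 with the replicate block. In WT libraries alone sex called 392, 23, 39 and 72 (293 in all libraries) in the striatum, cortex, hippocampus and cerebellum. Genotype by age in the striatum called 0 by limma-voom or on TPM and 21 with no filter. The cause was not tested. Low counts limit the cerebellum most.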
